A study of Mus musculus with 4 samples.

Results

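CD4 T cells respond to stimulation by raising and lowering many transcripts, and the values below describe how far that response differed between cells from wildtype mice and cells from mice labelled as Med23 knockout. A gene's response is the log2 level with stimulation minus the log2 level without it, in one genotype, and its response gap is the response in the labelled knockout minus the response in wildtype. A gene was taken as induced or lowered when its response was at least 2-fold (a log2 difference of 1). The genes of interest were induced in both genotypes, or lowered in both, with a response gap of at least 2-fold as well. There were 146 such genes among 10738 genes measured above a detection floor in all 4 arrays (1.36%).

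The cells were lymph node CD4 T cells, the helper lymphocytes, from male mice aged 7 weeks. The 4 groups were wildtype unstimulated, wildtype stimulated for 6 h, Med23 knockout unstimulated and Med23 knockout stimulated for 6 h. By the design text, stimulation was through the T cell receptor, and the question is how much of the response needs Med23. Each group was 1 single-colour Agilent array, with no replicate, so no test was possible, no p-value is given and precision is limited by the small number of arrays. How Med23 was deleted, in which cells, whether animals were pooled and how the cells were sorted are details not given in the labels.

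The Med23 protein belongs to Mediator, a large complex that carries signals from DNA-bound transcription factors to RNA polymerase II. In a resting T cell, receptor stimulation switches on early transcription factors, then cytokines and surface ligands, and at the same time the cell begins to build ribosomes, take up nutrients and make sterols for new membrane. Genes that hold the naive cell at rest are turned down as this happens.

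A level is the log2 of a gene's signal over its array's 75th percentile, with a floor at -5.01. Med23 itself, the targeted gene, had 1 probe, which stood at -1.59 and -0.75 in wildtype without and with stimulation and at -1.66 and -2.29 in the array pair labelled knockout. Its level was at least 2-fold lower in the labelled knockout among the stimulated arrays but not among the unstimulated ones, which goes against their label, although whether the probe lies in the deleted part of the gene is not known. The name "labelled knockout" is used here because the genotype was taken from the labels alone.

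The stimulated wildtype array stood apart from the other 3. It was the brightest, with a 75th percentile of raw signal 2.79 times that of the dimmest array, and it carried genes of other blood cells. The summed linear level of 38 myeloid and neutrophil genes was 530 there against 49.7 to 70.2 in the other arrays, and that of 16 red cell genes was 164 against 2.35 to 4.26. Of the 38 genes 0 were at the floor in that array and 12 to 15 in each of the others, where the defining genes S100a8, S100a9 and Lyz2 were at or within 1.28 of the floor. T cell identity genes summed to 780 there and to 986 to 1234 elsewhere, with Cd3e between 6.97 and 7.90 and Cd4 between 1.01 and 2.62 in all 4 arrays, so the labelled cell type was present in each. Of the CD8 T cell markers, Cd8a lay at or below -4.20 throughout. Cd8b1 was higher, at -0.55 without and -2.58 with stimulation in wildtype. In the labelled knockout Cd8b1 was at -0.54 and -1.53. The summed level of 20 dendritic genes differed by genotype. It was 69.8 without and 64.3 with stimulation in the labelled knockout, against 32.9 and 36.2 in wildtype. Every response gap uses the stimulated wildtype array and cannot be computed without it. The part of these other cells in the gaps below was not tested. Of the 146 genes Gzmb belonged to the natural killer list and Crtam to the CD8 T cell list. The membership rule itself leaves out a gene that is raised in the stimulated wildtype array alone, and 22 of the 38 myeloid and 11 of the 16 red cell genes were at the floor in at least 1 array, so these counts say nothing on that part.

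**Figure D1:**
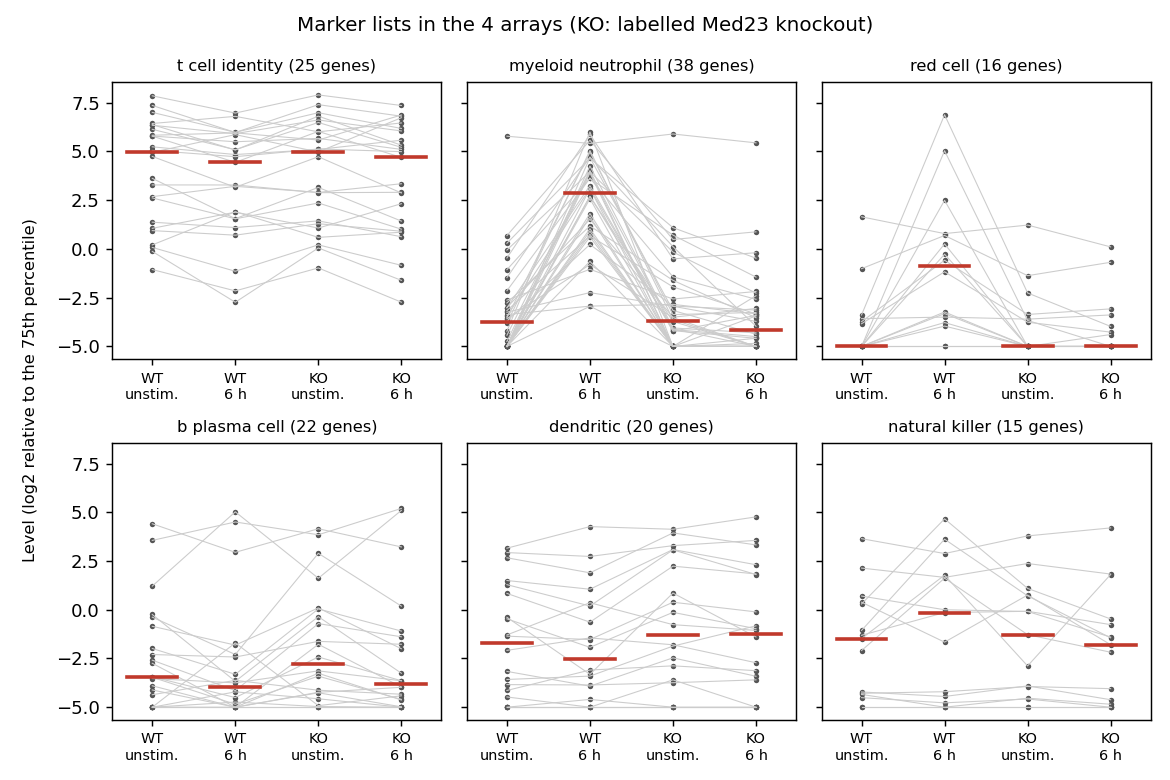
Levels of marker genes (vertical axis, log2 relative to the array's 75th percentile) in the 4 arrays (horizontal axis) for 6 cell type lists; each point is 1 gene, grey lines join a gene across arrays and red bars are list medians. The median of the 38 myeloid and neutrophil genes was 2.89 in the stimulated wildtype array and between -4.14 and -3.68 in the other 3, whereas the T cell identity median stayed between 4.44 and 4.98.

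Over all measured genes, 770 (7.17%) had a response more positive by at least 2-fold in the labelled knockout, and 935 (8.71%) one less positive by at least 2-fold; these are called larger and smaller responses. The larger side thus held 45.2% of the called genes, a split that depended on scaling: it was 76.1% with arrays scaled to their medians, 20.9% with arrays scaled to the T cell identity genes and 52.6% in the authors' normalized values. The median gap of all genes was 0.18, and it was 0.46 and -0.06 under the first and second of these scalings, so gaps are best read against it. By the same rule 13.4% of genes were higher and 14.6% lower with stimulation in wildtype, and 14.6% and 14.5% in the labelled knockout. Most of the 1705 called genes (15.9%) were 2-fold in 1 genotype only or in neither. Of them, 206 were higher in the labelled knockout alone, 332 higher in wildtype alone, 273 lower in the labelled knockout alone and 182 lower in wildtype alone, while 503 had a 2-fold gap without a 2-fold response in either genotype. Another 63 went in opposite directions, 56 of them higher in wildtype and lower in the labelled knockout.

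The genes that responded in both genotypes mostly did so to a like extent. Of 810 genes induced in both, 61 (7.53%) were induced at least 2-fold more in the labelled knockout and 32 (3.95%) at least 2-fold less, which left 717 within 2-fold. Of 911 genes lowered in both, 41 (4.5%) fell at least 2-fold further in the labelled knockout and 12 (1.32%) fell less, which left 858 within 2-fold. The induced genes had a median gap of 0.21, close to the 0.18 of all genes, and 68.4% of them were above 0 against 60.3% of all genes. These shares were 75.7% against 73.7% with scaling to the median and 63.7% against 62.2% in the authors' values. With scaling to the T cell identity genes they were 55.2% against 46.6%. The median of the induced genes minus that of all genes was -0.09, -0.02 and 0.11 in the same order. The lowered genes had a median gap of -0.05, and 54.1% of them were below 0 against 39.7% of all genes. Just inside and outside the 2-fold gap stood 1700001L05Rik (1.01) and Polr3d (0.99) among the genes induced more, Orc2 (-1.01) and Hk2 (-1.0, short of the threshold before rounding) among those induced less, Sesn1 (-1.0) and Nod1 (-0.99) among those lowered more, and Zfp763 (1.02) and Wscd2 (1.00, likewise short) among those lowered less.

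**Figure D2:**
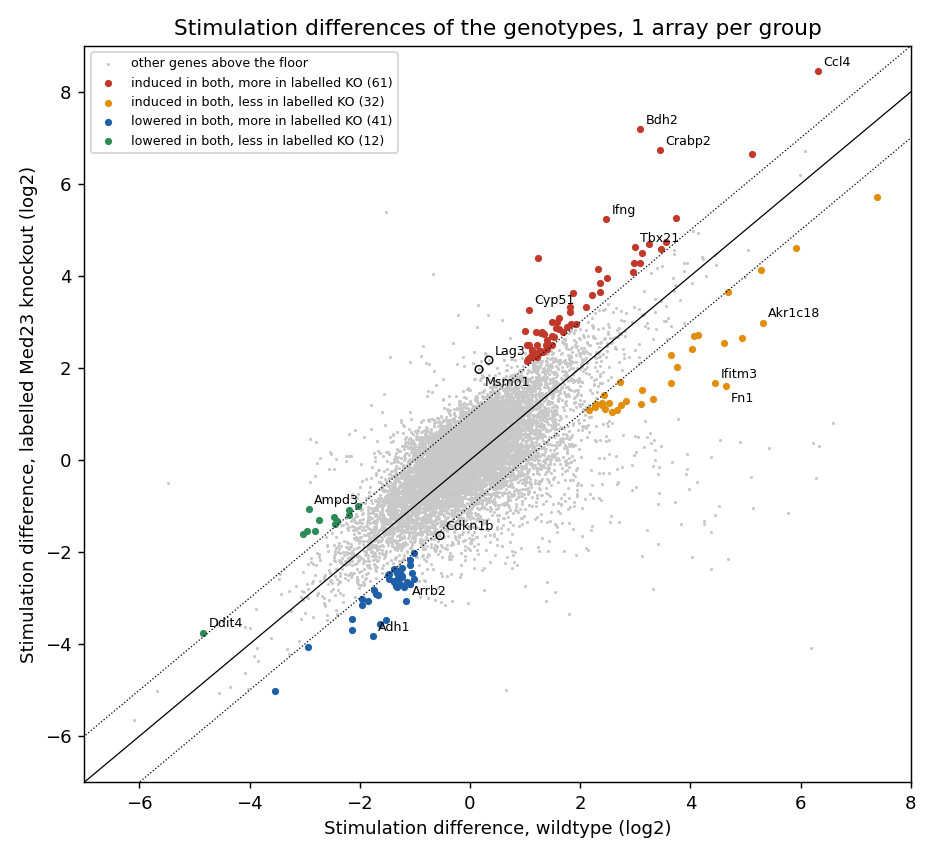
Response of each gene in wildtype (horizontal axis, log2) against its response in the labelled knockout (vertical axis, log2) for 10738 genes above the floor, of which 3 lie outside the axes; the solid line marks equal responses and the dotted lines a 2-fold gap. The 61 red and 41 blue genes responded more in the labelled knockout, the 32 orange and 12 green genes less, and the open circles mark Msmo1, Lag3 and Cdkn1b, which had a 2-fold response in the labelled knockout alone.

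The single-probe precision limits these calls. Among probes printed as 10 spots, the gap computed from single spots had an SD of 0.152 where the lowest of the 4 levels was above 1, of 0.330 between -3 and 1, and of 0.830 between the floor and -3. This spread covers spots of 1 array and not animals or cultures. Of the 61 genes induced more in the labelled knockout 47 kept every level above -3, as did 20 of the 32 induced less, 27 of the 41 lowered more and 9 of the 12 lowered less. Most members had 1 probe, 53 of 61, 30 of 32, 34 of 41 and 12 of 12 in the same order, and where members had several probes these shared a sign in 8 of 8, 1 of 2 and 7 of 7 cases for the first 3 classes.

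The genes induced more in the labelled knockout included effector cytokines, chemokines and sterol genes. Sterol synthesis is run by SREBP, a factor released to the nucleus when membranes are short of sterol, which binds sterol response elements beside the general promoter factor NF-Y. Promoters are shown for 4 genes of this pathway because several of its members moved together: the demethylase Cyp51 and the methyl oxidase Msmo1, enzymes on the way from lanosterol to cholesterol, the synthase Hmgcs1 at the head of the pathway, and Srebf2, which encodes the SREBP form that drives it. Msmo1, Hmgcs1 and Srebf2 were chosen for their sterol response element, and Srebf2 after its values were seen. Each runs 5′ to 3′ from 250 bases before to 50 bases after the RefSeq start, in build GRCm38.p6, and capitals mark TCACNCCA, a spelling of the sterol response element, and CCAAT, the NF-Y motif, on either strand. The windows are Cyp51 at chr5:4104648-4104947 on the minus strand, Msmo1 at chr8:64733529-64733828 on the minus strand, Hmgcs1 at chr13:119690101-119690400 on the plus strand and Srebf2 at chr15:82147019-82147318 on the plus strand.
Cyp51: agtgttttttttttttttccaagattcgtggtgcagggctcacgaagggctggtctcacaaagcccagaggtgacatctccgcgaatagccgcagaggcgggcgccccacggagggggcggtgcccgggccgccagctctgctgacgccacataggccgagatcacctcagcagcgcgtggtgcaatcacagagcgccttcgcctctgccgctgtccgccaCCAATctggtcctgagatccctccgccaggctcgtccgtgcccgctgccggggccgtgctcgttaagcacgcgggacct
Msmo1: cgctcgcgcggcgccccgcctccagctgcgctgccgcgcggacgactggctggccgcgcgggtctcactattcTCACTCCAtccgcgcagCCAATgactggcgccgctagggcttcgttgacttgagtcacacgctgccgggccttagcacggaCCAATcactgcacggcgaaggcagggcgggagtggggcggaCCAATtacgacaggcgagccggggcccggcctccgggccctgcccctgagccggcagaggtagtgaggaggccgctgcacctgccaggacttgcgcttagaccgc
Hmgcs1: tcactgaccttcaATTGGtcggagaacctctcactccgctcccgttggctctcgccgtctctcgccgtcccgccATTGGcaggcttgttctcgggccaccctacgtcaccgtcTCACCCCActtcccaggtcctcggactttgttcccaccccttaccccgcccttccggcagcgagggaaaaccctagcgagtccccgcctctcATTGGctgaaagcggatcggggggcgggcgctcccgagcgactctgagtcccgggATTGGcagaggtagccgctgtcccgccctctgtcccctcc
Srebf2: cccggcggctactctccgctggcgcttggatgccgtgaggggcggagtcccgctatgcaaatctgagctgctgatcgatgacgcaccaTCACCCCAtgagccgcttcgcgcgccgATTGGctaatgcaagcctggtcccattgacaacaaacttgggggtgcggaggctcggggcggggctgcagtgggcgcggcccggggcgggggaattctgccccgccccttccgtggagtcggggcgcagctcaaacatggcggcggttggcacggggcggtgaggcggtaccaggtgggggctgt
The element TCACNCCA began 177, 137 and 162 bases before the start in Msmo1, Hmgcs1 and Srebf2, with no such letters in the Cyp51 window, which had CCAAT 29 bases before the start. Of the sterol and fatty acid genes with a gap of at least 2-fold 10 had a promoter entry, and TCACNCCA was in 3 of them and CCAAT in 8. Over the 29 listed genes with an entry the counts were 3 and 22, and over all 27025 genes with an entry the shares were 4.97% and 41.1%. The motifs did not overlap each other, and a match is a description of letters, not of binding.

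Cyp51 had the largest gap of the 34 measured sterol and fatty acid genes. Its level was -0.37 without and 0.70 with stimulation in wildtype, and -0.81 without and 2.46 with stimulation in the labelled knockout. The stimulated labelled knockout array was thus the highest, with the unstimulated arrays within 0.44 of each other, and induction was 2.10-fold in wildtype against 9.63-fold in the labelled knockout (gap 2.20).

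Hmgcs1 stood at 1.76 and 2.88 in wildtype and at 1.72 and 4.10 in the labelled knockout, each pair without and then with stimulation (gap 1.26). The isomerase Idi1, which makes the building block of farnesyl diphosphate, stood at 2.28 and 4.04 in wildtype and at 2.35 and 5.24 in the labelled knockout (gap 1.13). In both genes the unstimulated arrays were near each other and the stimulated labelled knockout array was the highest. In all, 5 of the 10 list genes induced in both genotypes were among the 61 induced more in the labelled knockout. Over all 810 genes induced in both the share was 7.53%.

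Other sterol genes had a gap of at least 2-fold without a 2-fold response in both genotypes. Msmo1 stood at 2.31 and 2.47 in wildtype and at 2.09 and 4.06 in the labelled knockout, so that it was 1.12-fold higher with stimulation in wildtype and 3.92-fold in the labelled knockout (gap 1.81). The desaturase Sc5d was at 2.01 and 2.10 against 1.55 and 3.31 (gap 1.67). The reductase Dhcr7, which makes cholesterol from its last precursor, fell from 0.48 to -1.93 in wildtype and went from 0.09 to -0.79 in the labelled knockout (gap 1.53), so its larger value was a smaller fall.

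Altogether 15 of the 34 measured genes of the sterol and fatty acid list had a gap of at least 2-fold toward the labelled knockout and 0 the other way, against 7.17% and 8.71% of all genes. The 15 became 8 of 34 with scaling to the T cell identity genes, 10 of 34 with quantile normalization and 10 of 38 in the authors' normalized values. The count over all genes, 770 of 10738, became 362 of 10781, 735 of 10677 and 829 of 10993 in the same order. The list's median gap was 0.81, against 0.18 for all genes. Of the 34 genes 11 were 2-fold higher in the labelled knockout among the stimulated arrays and 0 among the unstimulated ones, against 4.54% and 2.42% of all genes; the shares of all genes 2-fold lower there were 6.21% and 0.875%. The pathway did not move as 1 block. Squalene epoxidase Sqle (2.29 in wildtype, 2.33 in the labelled knockout), the feedback protein Insig1 (2.13 and 2.01) and the farnesyl diphosphate synthase Fdps (1.79 and 1.58) had nearly equal responses, 3 genes chosen after their values were seen. The sterol exporters Abca1 (-2.84 and -2.62) and Abcg1 (-2.56 and -3.04), targets of the sterol sensor LXR that were named after their values were seen, were lowered in both genotypes with gaps of 0.22 and -0.49. Scd2, a fatty acid desaturase, was the 1 listed gene lowered in both and lowered at least 2-fold less in the labelled knockout, from 2.90 to 0.44 in wildtype and from 2.95 to 1.57 there.

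Ifng, the defining cytokine of type 1 helper cells, was induced far more in the labelled knockout. Its level was -1.42 without and 1.04 with stimulation in wildtype, and -1.59 without and 3.64 with stimulation in the labelled knockout. The unstimulated arrays differed by 0.17 and the stimulated labelled knockout array was the highest, which made induction 5.53-fold in wildtype and 37.6-fold in the labelled knockout (gap 2.77). Tbx21, the transcription factor that sets the type 1 programme and acts on Ifng, was at -1.29 and 1.70 in wildtype and at -1.14 and 3.48 in the labelled knockout (gap 1.63). Again the unstimulated arrays were alike and the difference lay between the stimulated ones.

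The rest of the type 1 helper list did not follow as a whole. Of its 15 measured genes 4 had a larger and 1 a smaller response in the labelled knockout, against 7.17% and 8.71% of all genes, and its median gap of 0.24 was near that of all genes. Gzmb, a granzyme of cytotoxic granules, was at -1.49 and 1.77 in wildtype and at -2.89 and 1.80 in the labelled knockout (gap 1.44), so its stimulated levels were nearly equal and its gap came from a lower unstimulated level. The interferon gamma receptor chain Ifngr2, named after its values were seen, had responses of -1.73 in wildtype and -0.70 in the labelled knockout.

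Chemokines were among the largest gaps. Ccl4, a chemokine that recruits effector and myeloid cells, was at -2.88 and 3.44 in wildtype and at -2.77 and 5.68 in the labelled knockout, an induction of 79.9-fold against 351-fold (gap 2.13). Ccl1, the ligand of CCR8, was at -2.27 and -1.04 in wildtype and at -4.34 and 0.07 in the labelled knockout (gap 3.17). For Ccl4 the gap lay in the stimulated arrays, whereas for Ccl1 the larger part, 2.06 of 3.17, lay in the low unstimulated level of the labelled knockout. The receptor Ccr8 itself, named after its values were seen, had a gap of 1.41, with levels of -1.68 and -0.10 in wildtype and -0.78 and 2.21 in the labelled knockout.

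Among the 28 measured cytokine and chemokine genes 7 had a larger response in the labelled knockout and 2 a smaller one (median gap 0.62), against 7.17% and 8.71% of all genes. The 7 became 11 with scaling to the median, 4 with scaling to the T cell identity genes and 3 of 15 with the floor at the 60th percentile. The count over all genes, 770 of 10738, became 1897 of 10670, 362 of 10781 and 501 of 7383 in the same order. The 4 others with a larger response included Cd40lg (gap 1.47), the helper ligand for B cells, Il22 (1.15), which acts on epithelium, and Tnfsf9 (1.12), the ligand of the costimulatory receptor 4-1BB. Several strongly induced cytokines had small gaps. Il17a rose by 6.00 in wildtype and by 6.20 in the labelled knockout, Tnf by 3.68 and 3.96, and Il4 by 3.31 and 2.64, 3 genes chosen after their values were seen. The level of Il4 was nonetheless higher in the labelled knockout, by 2.85 among the unstimulated arrays and by 2.18 among the stimulated ones. Il2, the T cell growth factor, was at -0.22 and 3.83 in wildtype and at 0.14 and 5.11 in the labelled knockout, and its gap of 0.92 was short of 2-fold. Of the 28 genes 14 were 2-fold higher in the labelled knockout among the stimulated arrays and 4 among the unstimulated ones, against 4.54% and 2.42% of all genes, so part of this list already differed without stimulation. In bulk RNA, fewer producing cells and less RNA per cell cannot be told apart.

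Other cytokines had both unstimulated arrays at the floor, so the size of each response is known only as a lower bound and no gap can be given. Ccl3, the close relative of Ccl4, was induced at least 4.44 in wildtype and at least 6.00 in the labelled knockout, and its stimulated level was 1.56 higher in the latter. Among the stimulated arrays the labelled knockout was higher by 2.37 for Il6, by 1.68 for Il9 and by 1.20 for Il3. Il5 (0.67) and Il13 (-0.06), cytokines of type 2 helper cells, differed by less than 2-fold. In all, 301 genes had at least 1 probe at the floor in at least 1 array and a 2-fold response in both genotypes in the same direction, 161 induced and 140 lowered, and these stand outside the 146.

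The largest gap of the class belonged to neither group. Bdh2, a dehydrogenase named for ketone body metabolism, was at -0.93 and 2.16 in wildtype and at -4.54 and 2.66 in the labelled knockout (gap 4.10). Its stimulated levels were within 0.50 of each other, and the gap came from a level near the floor in the unstimulated labelled knockout array. Crabp2, a carrier of retinoic acid, was at -2.46 and 0.99 in wildtype and at -2.92 and 3.82 in the labelled knockout, which is 10.9-fold against 107-fold (gap 3.28), and here the stimulated arrays differed. The costimulatory ligand Cd70 was at -2.42 and -1.41 against -1.42 and 1.39 (gap 1.81), with higher levels in the labelled knockout in both states.

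Some surface molecules that restrain or tune T cells were part of the same class or near it. Cd200, a ligand that quiets myeloid cells, was at 1.84 and 3.18 in wildtype and at 1.65 and 4.39 in the labelled knockout (gap 1.40). Lag3, an inhibitory receptor for MHC class II, was at -1.22 and -0.87 in wildtype and at -1.59 and 0.58 in the labelled knockout, 1.27-fold against 4.51-fold (gap 1.83), and so was induced by the 2-fold rule in the labelled knockout alone. The inhibitory receptor Btla likewise went from 4.09 to 3.86 in wildtype cells and from 4.05 to 5.19 in the labelled knockout (gap 1.37). Of the 25 measured coinhibitory and costimulatory genes 4 had a larger and 2 a smaller response, against 7.17% and 8.71% of all genes, with a median gap of 0.30. The 4 became 7 with scaling to the median, while over all genes the count went from 770 of 10738 to 1897 of 10670. The 2 were Cd244a (-4.62), the largest gap of the list and also a gene of the natural killer list, and Cd200r1 (-1.28). Pdcd1, the inhibitory receptor PD-1, named after its values were seen, rose by 2.74 in wildtype and by 3.04 in the labelled knockout.

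**Figure D3:**
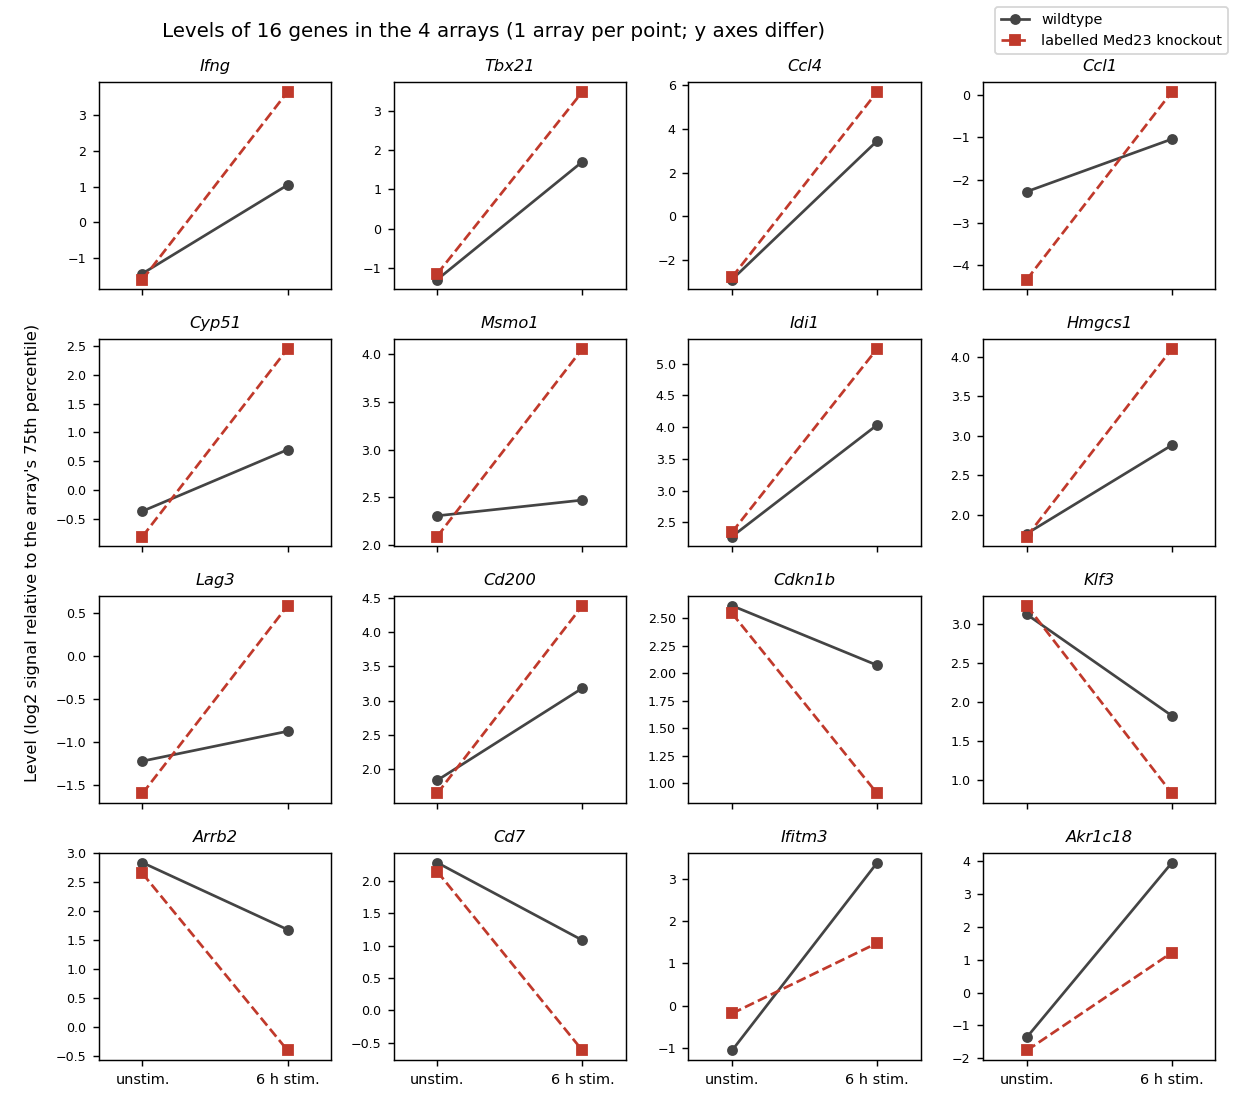
Levels of 16 genes (vertical axes, log2 relative to the array's 75th percentile, each with its own range) without and with 6 h of stimulation, for wildtype (grey circles, solid lines) and the labelled knockout (red squares, dashed lines); each point is 1 array. In Ifng, Tbx21, Ccl4, Idi1 and Hmgcs1 the unstimulated points nearly coincide and the stimulated ones part, whereas in Ccl1 the unstimulated points differ by 2.06.

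Of 33 measured early response genes 22 were induced in both genotypes, against 810 of all 10738 genes. A gap of at least 2-fold toward the labelled knockout was found for 3 of the 33 and the other way for 0, against 7.17% and 8.71% of all genes, and the median gap was 0.50. With scaling to the median the 3 became 14, while over all genes the count went from 770 of 10738 to 1897 of 10670. Among the 3 was Dusp5, a nuclear phosphatase that switches off ERK (1.57 in wildtype, 2.87 in the labelled knockout). Nfkbia, the inhibitor of NF-kB, went from 5.23 to 4.42 in wildtype cells and from 5.46 to 6.11 in the labelled knockout (gap 1.46). The nuclear receptor Nr4a1 (gap 0.79, named after its values were seen), Egr2 (0.76), Cd69 (0.93), Myc (0.44) and the interleukin-2 receptor chain Il2ra (0.20, and -0.04 at the lowest over the alternatives) lay within 2-fold, and Nr4a3 was at the floor in both unstimulated arrays with stimulated levels 0.99 apart.

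Growth genes had gaps of both signs. Ribosome assembly factors were induced in both genotypes in 29 of 35 cases, against 810 of all 10738 genes, and had a median gap of 0.61. Of the 35 genes 3 had a larger and 2 a smaller response, against 7.17% and 8.71% of all genes. The 3 became 13 with scaling to the median and 0 with quantile normalization. The count over all genes, 770 of 10738, became 1897 of 10670 and 735 of 10677. Rrp9 (gap 1.24), which acts in processing of ribosomal RNA, and Bysl (1.09), needed for the small subunit, were induced more in the labelled knockout. Wdr75, also a small subunit factor, was at -0.06 and 3.05 in wildtype and at 0.20 and 1.72 in the labelled knockout, so it was induced less (gap -1.59). In the nutrient and stress response list 7 of 27 genes had a larger and 1 a smaller response (median gap 0.47), against 7.17% and 8.71% of all genes. The 7 became 3 with scaling to the T cell identity genes and 3 of 25 in the authors' normalized values. Over all genes the larger responses were 362 of 10781 and 829 of 10993 in these settings. The 2 carriers induced more in the labelled knockout were Slc3a2 (gap 1.08), the shared chain of several amino acid carriers, and Slc6a9 (1.21), which imports glycine. The cationic amino acid carrier Slc7a3 was at -2.47 and -2.41 in wildtype and at -3.28 and -1.17 in the labelled knockout (gap 2.06). Asns, the asparagine synthetase, went the other way, with -2.07 and 2.0 in wildtype and -1.32 and 1.36 in the labelled knockout (gap -1.38). Hif1a (gap 1.12), the oxygen-sensitive regulator of glycolysis, was induced more in the labelled knockout and the lactate exporter Slc16a3 (gap -1.35) less.

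The 32 genes induced less in the labelled knockout had a median response of 3.22 in wildtype and 1.57 in the labelled knockout. Ifitm3, an interferon-induced membrane protein that blocks virus entry, was at -1.06 and 3.39 in wildtype and at -0.19 and 1.48 in the labelled knockout, an induction of 21.9-fold against 3.18-fold. Its 10 spots gave a gap of -2.78 with an SD of 0.289 between spots. Its relatives Ifitm1 (gap -1.89) and Ifitm2 (-1.55, named after its values were seen) had gaps in the same direction, but their sequences are alike and probes of such a family may share signal. Most other interferon-stimulated genes did not share this gap: of 32 measured 2 had a larger and 2 a smaller response, against 7.17% and 8.71% of all genes, with a median gap of 0.05 that lay between -0.18 and 0.34 over the alternatives.

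Akr1c18, a hydroxysteroid dehydrogenase that inactivates progesterone, was at -1.36 and 3.96 in wildtype and at -1.76 and 1.22 in the labelled knockout, 39.9-fold against 7.90-fold (gap -2.34), with the stimulated wildtype array the highest. The matrix protein Fn1 was at -4.95 and -0.31 against -2.50 and -0.89 (gap -3.03), so that most of its gap lay in the unstimulated arrays, near the floor. Ccl9 (gap -1.97), a chemokine of myeloid cells, was also in this class. So was Sirpa (-1.52), a receptor of myeloid cells named after its values were seen. Among the unstimulated arrays the labelled knockout was higher by 1.17 for Ccl9 and by 1.21 for Sirpa. Among the stimulated arrays the differences were -0.80 and -0.31, so the larger part of both gaps lay in the unstimulated arrays. The part of other cells in these gaps was not tested. Spry1, a feedback inhibitor of receptor signalling, was induced by 5.92 in wildtype and by 4.61 in the labelled knockout. The other members of the leading 8 were the zinc finger gene Zfp948 (-2.27), the cyclin-like Ccno (-2.05) and Ifrd2 (-2.01).

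The 41 genes lowered more in the labelled knockout had a median response of -1.34 in wildtype and -2.65 in the labelled knockout. Adh1, an alcohol and retinol dehydrogenase, fell from 1.25 to -0.52 in wildtype cells and from 0.76 to -3.06 in the labelled knockout (gap -2.06). Arrb2, a beta-arrestin that shuts off and internalises chemokine and other G protein-coupled receptors, fell from 2.84 to 1.68 in wildtype cells and from 2.65 to -0.40 in the labelled knockout (gap -1.90). In both the stimulated labelled knockout array was the lowest of the 4. The other beta-arrestin, Arrb1, named after its values were seen, had a gap of -1.40.

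Lymphocyte genes in this class included Cd7, a surface protein of T cells, which fell from 2.28 to 1.08 in wildtype cells and from 2.15 to -0.62 in the labelled knockout (gap -1.57). Il16, a chemoattractant for CD4 cells, fell from 2.52 to 1.18 and from 2.76 to 0.03 (gap -1.40). Klf3, a Kruppel-like repressor of lymphocytes, fell from 3.12 to 1.82 and from 3.23 to 0.82 (gap -1.11). Cd200r1, the receptor of Cd200, had a gap of -1.28, opposite in sign to that of its ligand. The remaining leading members were Gm1987, the progestin receptor Paqr7 (-1.93), Tubg2 (-1.61), Ankrd11 (-1.60) and the actin-severing protein Gsn (-1.58).

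The cell cycle inhibitor Cdkn1b, which holds resting T cells out of division, stood at 2.62 and 2.07 in wildtype and at 2.55 and 0.91 in the labelled knockout. It was lowered by the 2-fold rule in the labelled knockout alone, to 0.321 of its unstimulated level against 0.687 in wildtype (gap -1.10). Klf2, which keeps naive cells quiescent and in circulation, had responses of -0.98 in wildtype and -1.62 in the labelled knockout, a gap of -0.64 that was short of 2-fold. Of the 35 measured naive and quiescence genes 4 had a gap of at least 2-fold in each direction, against 7.17% and 8.71% of all genes, and the median gap was 0.02, between -0.22 and 0.31 over the alternatives. Klf7 (-2.33) and the interleukin-6 receptor chain Il6ra (-2.24) were at the low end, and its partner chain Il6st (1.48) at the high end. In the cell cycle list 2 of 26 genes had a larger and 4 a smaller response (median gap 0.29), against 7.17% and 8.71% of all genes. Among the 4, Mki67, a marker of dividing cells, was at 0.76 and 1.79 in wildtype and at 1.65 and 1.03 in the labelled knockout, and Ccna2, an S phase cyclin, at 0.01 and 1.51 against 0.64 and 0.23.

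The 12 genes lowered less in the labelled knockout were led by Ampd3, an AMP deaminase, which fell from -1.83 to -4.76 in wildtype cells and from -2.60 to -3.66 in the labelled knockout (gap 1.86), and the stimulated wildtype level was near the floor. Ddit4, an inhibitor of mTORC1 that is abundant in resting T cells, fell from 6.98 to 2.15 in wildtype cells and from 6.63 to 2.88 in the labelled knockout (gap 1.09). Ctsw, a cathepsin of cytotoxic lymphocytes, fell from 4.35 to 1.32 and from 3.25 to 1.64 (gap 1.42), having started lower in the labelled knockout. The neuroendocrine factor Insm1 (1.44), Ctrb1 (1.42), the DNA repair enzyme Parp3 (1.27) and the vesicle protein Vamp1 (1.23) followed.

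The classes differed in which pair of arrays carried the gap. Among the 61 genes induced more in the labelled knockout the larger part lay between the stimulated arrays for 56, with a median difference of 1.13 there and of -0.24 between the unstimulated arrays. Among the 41 lowered more it lay there for 33, with medians of -1.15 and 0.08. The 32 induced less were divided, 18 with the larger part in the stimulated and 14 in the unstimulated arrays. Of the 12 lowered less 10 had the larger part in the stimulated arrays. Over all 10738 genes the larger part of the gap lay between the stimulated arrays for 7851, and these are counts within a set chosen by its gap.

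**Figure D4:**
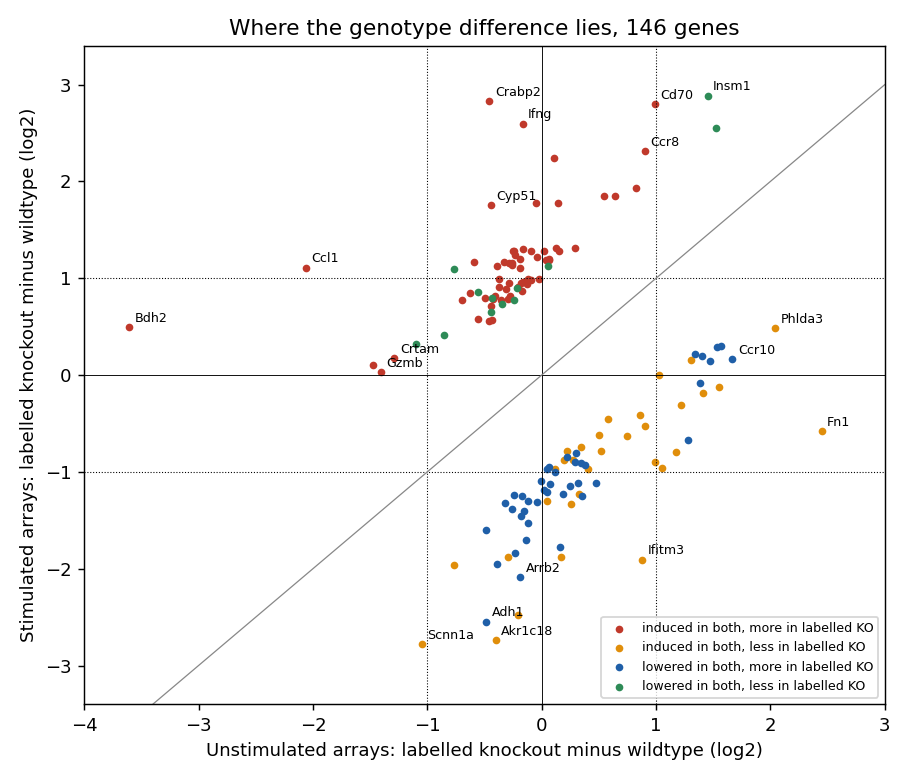
Labelled knockout minus wildtype among the unstimulated arrays (horizontal axis, log2) and among the stimulated arrays (vertical axis, log2) for the 146 genes, coloured by class; dotted lines mark 2-fold and the diagonal a gap of 0. Most red and blue genes lie near 0 on the horizontal axis, while Bdh2 and Ccl1 lie far to the left and Fn1 far to the right.

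Across the gene lists the sterol and fatty acid list had the highest median gap, 0.81, and stayed 0.34 to 0.82 above the median of all genes over the alternatives. The cytokine list (0.62) and the ribosome assembly list (0.61) followed. The order was not fixed: above the median of all genes, with the pseudocount, stood the ribosome list by 0.41, the cytokine list by 0.40 and the sterol list by 0.34, and in the authors' values the CD8 list of 6 measured genes (0.81) was above the sterol list (0.41), as it was with the brightest probe of each gene (0.63 against 0.54). Mediator subunits had a median gap of 0.19, between -0.05 and 0.47 over the alternatives. Of the 31 measured 1 had a larger and 3 a smaller response, against 7.17% and 8.71% of all genes. The 3 were Med31 (-1.76), Med23 (-1.47) and Med17 (-1.28). The larger response was that of Med13 (1.10), whose dim levels lay between -4.49 and -3.13. The myeloid and red cell lists were at the other end, with 15 of 16 and 4 of 5 measured genes at least 2-fold smaller in the labelled knockout and median gaps of -5.98 and -2.87. Natural killer (-0.55), dendritic (-0.01) and B and plasma cell (0.09) genes had medians closer to that of all genes, and over the alternatives the last 2 took either sign. A gap near 0 does not mean equal levels. Of the 12 measured dendritic genes 8 were 2-fold higher and 0 lower in the unstimulated labelled knockout array, against 2.42% and 0.875% of all genes. Among the stimulated arrays 7 were higher there and 1 lower, against 4.54% and 6.21%. Of the 12 measured B and plasma cell genes 4 were higher and 0 lower among the unstimulated arrays, and 3 and 0 among the stimulated ones. For the 10 measured natural killer genes these counts were 2 and 1, then 1 and 4.

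**Figure D5:**
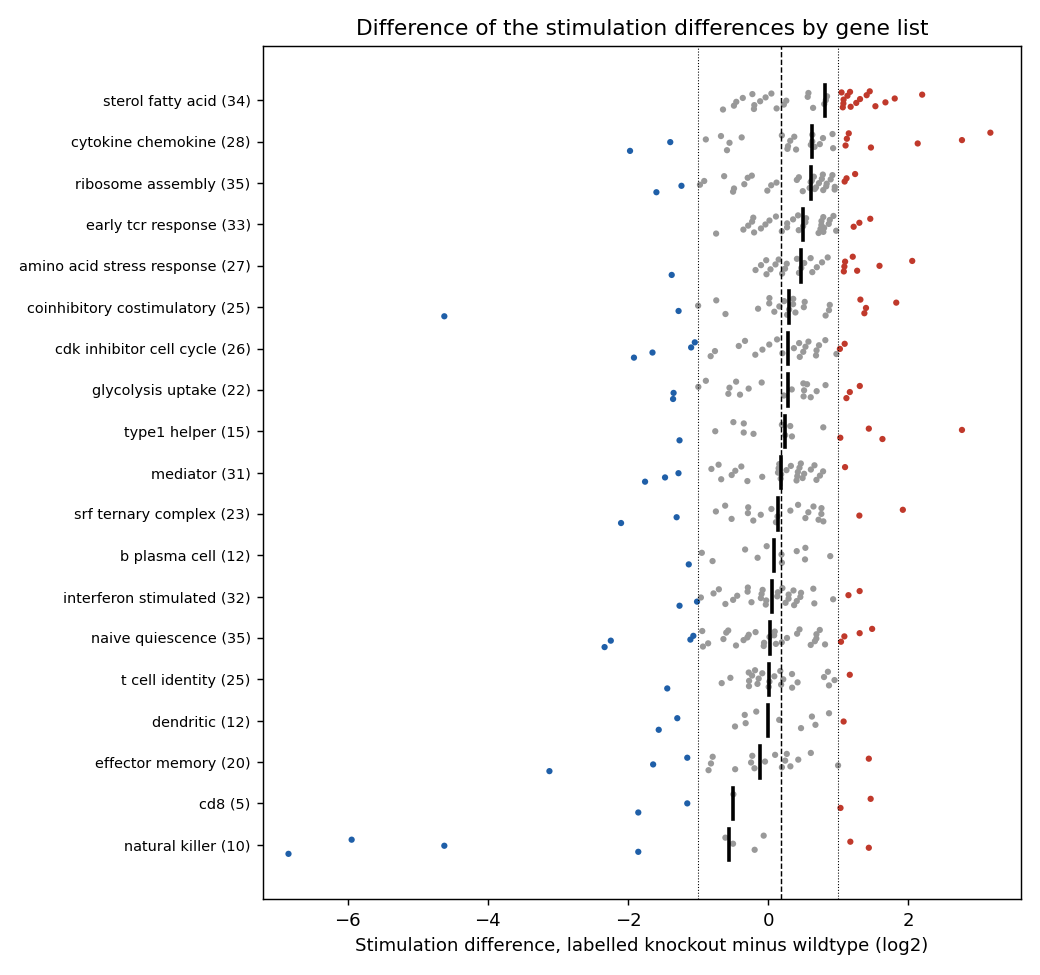
Response gap (horizontal axis, log2, labelled knockout minus wildtype) of the measured members of 19 gene lists, ordered by median; points are genes, red and blue ones with a gap of at least 2-fold, black bars are list medians, the dashed line is the median of all genes (0.18) and dotted lines mark 2-fold. The sterol and fatty acid list, at the top, has 15 red points and 0 blue ones; the myeloid and red cell lists, with medians of -5.98 and -2.87, are not drawn.

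Scaling to the median or to the T cell identity genes shifts every gap by the same amount. A change of floor leaves levels above it unchanged. Narrow ranges for single genes were thus partly fixed in advance. The gap of Ifng stayed between 2.53 and 3.05 over 9 alternatives, that of Cyp51 between 1.96 and 2.49, that of Msmo1 between 1.56 and 2.10 and that of Lag3 between 1.59 and 2.12, each past 2-fold in all 9. Cdkn1b lay between -1.33 and -0.81 and was past 2-fold in 8 of the 9, the exception being scaling to the median.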

How the data were processed

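RNA from 4 samples was labelled with Cy3 and hybridised to single-colour Agilent arrays. The raw table, as deposited, gives a linear intensity for each of 44397 spots, made with Agilent Feature Extraction 10.7.3.1 per the submitters' processing notes, not normalized between arrays and without detection flags. The authors also deposited log2 values, normalized with GeneSpring GX 11.5.1 according to its header, which served as an alternative. No source used here names the build behind the array's annotation.

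Here the log2 values of a probe's spots were averaged, each array's 75th percentile over its 39429 non-control probes was subtracted, and values under the median of the arrays' 40th percentiles (-5.01) were set to that floor. Accessions named 26299 probes through a RefSeq table of GRCm38.p6, giving 19896 genes; 13130 probes stayed unnamed. A gene's probes were averaged, and 10738 genes with every probe above the floor in all 4 arrays were used, since a gap that involves the floor has no known size. Calls rest on size alone (2-fold). Raw signals had 75th percentiles of 269.1, 680.8, 332.6 and 243.7 in the wildtype unstimulated, wildtype stimulated, labelled knockout unstimulated and labelled knockout stimulated arrays, and 59.5% to 62.7% of the probes lay above the floor.

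The members and the 21 gene lists (572 genes, 560 on the array) were chosen with earlier results of these data known. Named genes are Ifng, Cyp51, Msmo1, Cdkn1b, Lag3, Med23 and a few activation genes, the 8 largest gaps of each class among genes whose probes share a sign, and in each list the 4 largest gaps, members of the classes and up to 6 genes at the floor with a 2-fold response in both genotypes; the text says which others were chosen after their values were seen. Some genes that this rule takes are not reported here. Promoters are from RefSeq. The class rules were tested on simulated data. Alternatives were other scalings, floors, a pseudocount of 0.03125 in place of the floor, the brightest probe, the authors' values, a minimum level of -3 and, chosen after seeing the data, leaving out genes of other cell types. Python 3.11.15, numpy 2.4.6 and pandas 2.3.3 were used.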

Additional observations from a re-analysis of the deposited data

Results flagged for a closer look

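Among the 63 genes with 2-fold responses in opposite directions, 6 were flagged. Each response rests on 1 array pair, and the difference was not tested. Of these 6 genes, 5 were genes of red and myeloid cells that were high in the stimulated wildtype array. Alpha globin Hba-a2 had a response gap of -12.00 and the phospholipase-like Plbd1 one of -10.29. The leukotriene pathway gene Alox5ap was at -6.93, and the adaptor chains Tyrobp and Fcer1g were at -6.84 and -5.94. The kinase gene Sbk1 had a gap of 6.92, with levels of 1.70 and 0.18 in wildtype and 1.27 and 6.67 in the labelled knockout, all from 1 probe.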

How the results depend on the processing

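The called gaps of named genes kept their sign under the alternatives run, but the gap of Il2ra (0.20) kept its sign in 6 of 9, and the medians of all genes and of several lists near 0 took either sign, as given above. Scaling to the median moved the count of larger responses from 770 to 1897 and of smaller ones from 935 to 596, and the classes from 61, 32, 41 and 12 genes (induced more, induced less, lowered more and lowered less in the labelled knockout) to 99, 20, 27 and 44. Scaling to the T cell identity genes gave 362 larger responses, 79 genes induced less and 4 lowered less, and the authors' normalized values gave 21 lowered less. A floor at the 20th percentile gave 1639 smaller responses, 72 lowered more and 20 lowered less. A floor at the 60th percentile gave 501 larger and 404 smaller responses and classes of 36, 17, 18 and 7. A minimum level of -3 gave 535 smaller responses, 20 induced less and 27 lowered more. The remaining counts of larger and smaller responses over all genes and of the 4 classes stayed within 1.5 times; counts of list members moved more, as given with each list. Of the 61 genes induced more, 46 were in the class with scaling to the median and 38 of the 53 measured in the authors' values. No paired analysis was possible because each group has 1 array. Dim probes limit single calls, since in 14.7% of spots near the floor the gap was off by 2-fold, against 0% above a level of 1.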
